A study of Mus musculus with 30 samples.

Results

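Hippocampal RNA of male mouse pups heterozygous for Nf1 was compared with RNA of wild-type males at postnatal day 15 (P15). Both genotypes came from matings of C57BL/6 mice with Nf1 heterozygotes. Each array read 1 pool of the hippocampi of 2 pups, and 8 of the 30 pools of the series were chosen by genotype and age alone, 4 heterozygous and 4 wild type. The wild-type pools are titled 1a, 1b, 2c and 2d, and the heterozygous pools 1c, 1d, 2c and 2d. The sources used here do not give the litter, the day of processing, the position of the disrupted allele or the meaning of the title numbers. P-values therefore measure the spread between pools of 2 pups, and the small number of arrays limits the precision.

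Nf1 encodes neurofibromin, which speeds the hydrolysis of GTP by Ras and so turns Ras off. With less neurofibromin, Ras can signal longer through the RAF, MEK and ERK kinases and through PI3 kinase, and cAMP signalling can also be affected. In people, loss of 1 copy causes neurofibromatosis type 1, with tumours of the nerve sheath and often learning difficulties. In the rodent hippocampus, the third postnatal week is a time of synapse formation, of falling growth cone genes and of the start of myelination by oligodendrocytes.

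After the authors' scaling, the 8 array medians lay between 52.9 and 58.8 intensity units. Log2 values of any 2 of the 8 pools correlated across probe sets at 0.95 or more. The lowest of these values was that of wild-type 1a with wild-type 2d, and the highest, 0.98, joined wild-type 2c and heterozygous 1c. The ratio of 3' to 5' probe sets is a sign of RNA quality. For Gapdh its log2 was -0.12, -0.13, -0.26 and -0.24 in wild-type 1a, 1b, 2c and 2d, and -0.22, -0.08, -0.12 and -0.15 in heterozygous 1c, 1d, 2c and 2d, so that the wild-type pools divided by title number. For actin it was 0.50 and 0.49 in heterozygous 1c and 1d and 0.26 to 0.36 in the other 6 pools. The part of these ratios in the results was not tested for actin; with the Gapdh ratio as a covariate, 275 probe sets were called between title numbers, against 187 without it. Of 14 tested markers of dentate granule cells and CA pyramidal cells, none differed by genotype after adjustment. Their summed intensity was 4607 to 5959 in wild-type and 5537 to 6238 in heterozygous pools. Calb1, a calcium-binding protein of dentate granule cells, was measured at 290.0 to 385 in all 8 pools.

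The targeted gene was read by 1 dim probe set and showed no measurable loss. Nf1 (chromosome 11, 79339590 to 79581609, GRCm38.p6) had intensities of 11.99, 4.10, 6.90 and 5.44 in wild-type 1a, 1b, 2c and 2d. It had 15.04, 11.1, 7.88 and 3.60 in heterozygous 1c, 1d, 2c and 2d. The ranges overlapped, and the highest value belonged to a heterozygous pool. The log2 difference was 0.34 (SE 0.67, interval at 95% from -1.04 to 1.72). Neither limma (adjusted p 0.998) nor an exact permutation test (two-sided p 0.543) called it. With 4 pools against 4, the smallest p this permutation test can give is 0.0286. The mean level of Nf1 exceeded that of only 13.5% of probe sets and fell under the minimum for the other tests, so it cannot serve as a check of the labels.

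No gene passed the test for a genotype difference at P15. Of 7453 probe sets above the minimum level, limma called 0 (0%) at an adjusted p below 0.05, and the smallest adjusted p was 0.358. At an unadjusted p below 0.05 there were 440 (5.9%), of which 170 were higher and 270 lower in heterozygotes. The 4 heterozygous pools lay wholly above or wholly below the 4 wild-type pools for 221 probe sets (2.97%), above for 82 and below for 139. The median standard error of the log2 difference was 0.15. The 95% confidence interval lay within 1 log2 unit of no difference for 7093 probe sets (95.2%) and within 0.5 for 4622 (62.0%). Differences over 2-fold in size were thus outside the interval for most probe sets, and 13 probe sets had an estimate beyond 1 log2 unit. The call count depended on the treatment of the title code: with that code as a block, 81 probe sets were called, because this fit takes the difference from codes 2c and 2d alone, which both genotypes share.

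**Figure D1:**
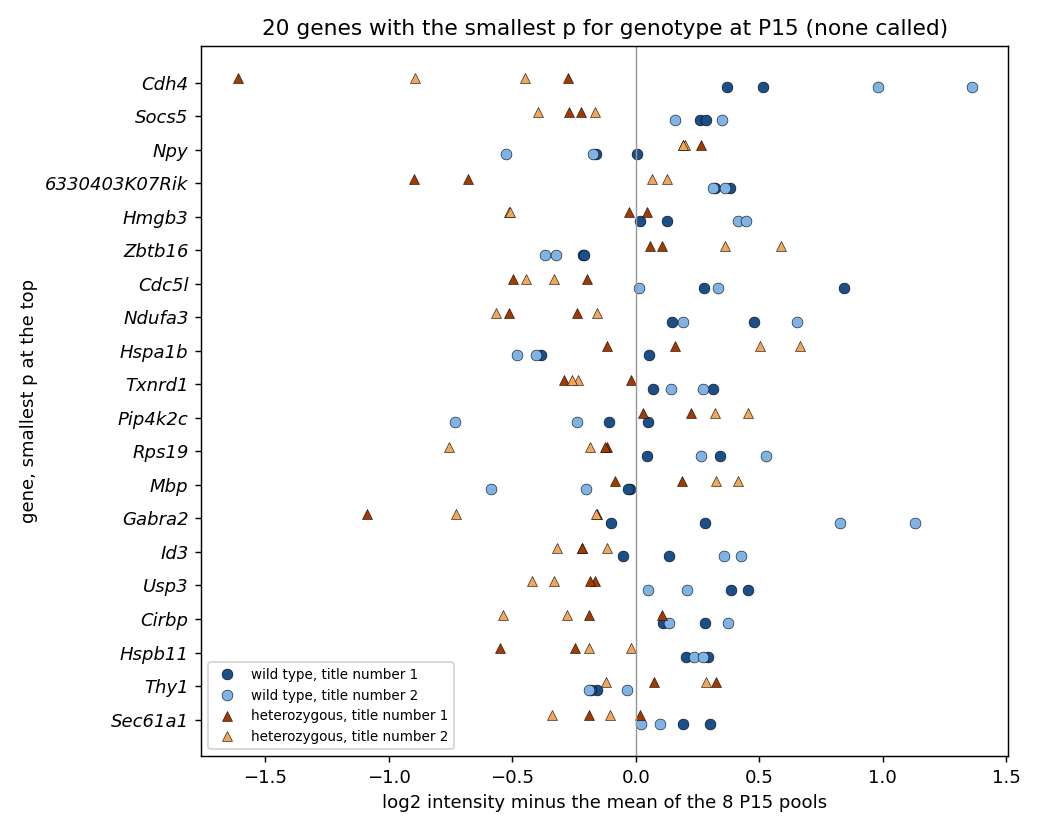
Log2 intensity in each of the 8 P15 pools minus the mean of the 8 (x axis, log2 units) for the 20 genes with the smallest p for genotype (y axis); circles are wild-type and triangles heterozygous pools, dark for title number 1 and light for number 2. For 15 of the 20 genes the triangles and circles do not overlap, and none of the 20 was called.

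The 20 genes with the smallest p were selected for their difference, so their values are a description; 6 were higher and 14 lower in heterozygotes, and 15 had groups that did not overlap. Cdh4, a cadherin that joins neurons to each other (R-cadherin), had the smallest p. Its intensities were 59.0, 65.3, 117 and 90.2 in the wild-type pools and 37.8, 14.96, 24.6 and 33.5 in the heterozygous pools, always in the order given above. All 4 heterozygous values lay below the lowest wild-type value. The log2 difference was -1.61 (SE 0.35, 95% confidence interval -2.33 to -0.90, limma adjusted p 0.358). Cdh4 is dim, at a mean log2 level of 5.32 over all 30 pools, and its difference at P10 had the opposite sign (0.98). With the Gapdh ratio as a covariate Cdh4 was the only probe set called, at -1.45 by limma.

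Socs5, a suppressor of cytokine signalling, was measured at 178, 181, 166 and 189 in wild-type pools. It was measured at 123, 127, 113 and 132 in heterozygous pools. The groups were tight and apart, with a log2 difference of -0.53 (SE 0.11, limma adjusted p 0.358) that was -0.52 among pools titled 1 and -0.54 among those titled 2. At P10 the Socs5 difference was 0.07, at P18 -0.76, at P20 -0.88, at P28 0.04 and at P32 0.02.

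Npy, the peptide of a class of hippocampal interneurons, stood at 602, 676, 468 and 598 in wild-type pools. In heterozygous pools it stood at 768, 809, 773 and 768. The lowest heterozygous value exceeded the highest wild-type value, and the log2 difference was 0.42 (SE 0.10, limma adjusted p 0.358). Zbtb16, a zinc finger transcription factor, was likewise higher in every heterozygous pool (649 to 937) than in any wild-type pool (482 to 538), at 0.56 (SE 0.14). The stress-induced chaperone gene Hspa1b had a difference of 0.61, Pip4k2c, a lipid kinase of phosphoinositides, 0.51, and the neuronal surface protein gene Thy1 0.28.

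Gabra2, a subunit of GABA-A receptors, stood at 51.2, 66.7, 120.3 and 97.4 in wild-type pools. It stood at 49.3, 25.8, 49.1 and 33.1 in heterozygous pools, all below the lowest wild-type pool by a small margin for 1c and 2c. The Gabra2 difference was -1.07 (SE 0.29, limma adjusted p 0.446). Hmgb3, a chromatin protein of dividing cells, had a difference of -0.50, which was -0.06 within number 1 and -0.94 within number 2 (limma adjusted p 0.00469 for the difference between numbers). Id3, an inhibitor of basic helix-loop-helix factors, had -0.43. The ribosomal protein gene Rps19 had -0.59, the cold-induced RNA-binding protein gene Cirbp -0.45, Txnrd1, a thioredoxin reductase, -0.40, and Sec61a1, of the protein channel of the endoplasmic reticulum, -0.31.

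The other lower genes of the 20 were 6330403K07Rik (-0.69; -1.14 within number 1 and -0.24 within number 2), Cdc5l (-0.74), Ndufa3 (-0.74), Usp3 (-0.55) and Hspb11 (-0.50). The 20 genes had 8 second probe sets, and 5 of the 8 had the same sign. The second probe set of 6330403K07Rik gave -0.50, whereas those of Pip4k2c, Cdc5l and Ndufa3 had the opposite sign, at -0.24, 0.09 and 0.02. For Mbp, the major myelin protein gene at 0.42 (SE 0.11), a second probe set gave 0.02. The sign of the P15 difference recurred at P10 for 11 of the 20 genes, at P18 for 12, at P20 for 13, at P28 for 7 and at P32 for 16; these other ages share no pool with P15.

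**Figure D2:**
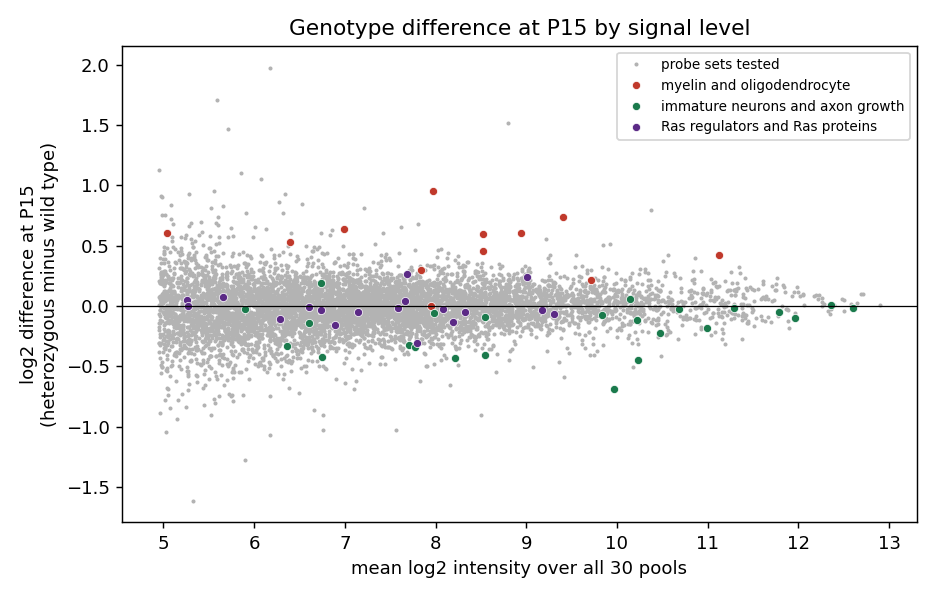
Genotype difference at P15 (y axis, log2, heterozygous minus wild type) against the mean log2 intensity over all 30 pools (x axis) for the 7453 probe sets tested, with 3 gene lists coloured. The 12 myelin genes lie at or above 0, at 0.00 to 0.96, and the 18 genes of Ras and its regulators lie between -0.31 and 0.26.

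No gene of the Ras pathway was called for genotype at P15. Of 18 tested genes of Ras proteins and their regulators, 5 were higher and 13 lower in heterozygotes, none was called, and the median difference was -0.03 on the log2 scale; over all 5694 genes tested the median was -0.00. Rasa1, a GTPase-activating protein with the same catalytic role as neurofibromin, stood at 142 to 216 in wild-type and 192 to 225 in heterozygous pools (0.26, SE 0.11). Rasa3, another such protein, stood at 178 to 280.0 and 174 to 218 (-0.31, SE 0.13). Both pairs of ranges overlapped, and the adjusted p was 0.771 for each with limma. The exchange factor genes Sos1 and Sos2 had differences of -0.11 and -0.01, and Nras one of -0.06.

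Of 18 kinases and phosphatases of the RAF, MEK and ERK branch, 12 were higher and 6 lower, with a median of 0.04 and 0 called. Dusp6, a phosphatase induced by ERK activity, was 0.11 higher (SE 0.11) and Spry4, a feedback inhibitor, 0.11 (SE 0.19). Mknk1, a kinase that acts below ERK on translation, had the largest difference of the list (0.41, SE 0.26). Of 11 genes of PI3 kinase, Akt and mTOR, 5 were higher and 6 lower, with Pik3ca at 0.31 and Tsc1 at -0.25. Of 18 cAMP signalling genes, 9 were higher and 9 lower, with the adenylyl cyclase gene Adcy8 at -0.33 and the anchoring protein gene Akap12 at -0.40. None of the PI3 kinase or cAMP genes was called.

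Inhibitory and excitatory synapse genes were likewise not called. Of 17 interneuron genes, 8 were higher and 9 lower (median -0.03). Beside Npy, the calcium-binding protein gene Pvalb of fast-spiking interneurons had 0.32 (SE 0.12), and the homeobox genes Dlx5 and Dlx2 had -0.65 (SE 0.22) and -0.63 (SE 0.27). Of 9 genes of GABA receptors and chloride transport, 4 were higher and 5 lower, with the chloride exporter gene Slc12a5 at -0.19. Of 19 glutamate receptor and postsynaptic genes, 13 were higher and 6 lower (median 0.10). Grin2b, the NMDA receptor subunit of young synapses, had 0.57 (SE 0.24), and Homer1, a scaffold of metabotropic receptors, 0.68 (SE 0.40), both with overlapping groups.

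In several lists of general cell functions most members had the same sign, without any called member. Of 21 cell cycle genes 16 were lower (median -0.15), of 13 ribosomal protein genes 12 were lower (-0.08), and of 25 proteasome and ubiquitin genes 19 were lower (-0.06). Of 16 cholesterol synthesis genes 12 were lower (-0.11), among them Fdps, which makes farnesyl diphosphate, the precursor of the lipid that anchors Ras, at -0.24 (SE 0.09). Of 25 stress, chaperone and metallothionein genes 21 were higher (0.18). Among all 5694 genes 2813 were higher and 2881 lower. Of 19 immediate early genes 15 were higher (0.11), and of 29 oxidative phosphorylation genes 19 were higher (0.02). Within title number 1 the medians were 0.01 for cell cycle, 0.03 for ribosomal protein, -0.01 for stress and -0.12 for immediate early genes, against -0.24, -0.18, 0.28 and 0.17 within number 2.

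For some genes the genotype difference at P15 depended on the title number. A test of the difference of the 2 genotype effects called 103 probe sets that were higher (1.38%) and 84 that were lower (1.13%) within number 2 than within number 1, of 7453 tested with limma. Over all 7453 probe sets, which are not independent, the genotype differences in the 2 numbers correlated at -0.23. Of the 5694 genes, 1114 were higher and 1276 lower in heterozygotes in both numbers. Within number 1, 14 probe sets were called for genotype (0.188%, 8 higher and 6 lower in heterozygotes), and within number 2, 134 were called (1.8%, 71 higher and 63 lower). Only Apod and Usp2 were called in both, each lower in heterozygotes within number 1 and higher within number 2; a second probe set of Usp2, a deubiquitinating enzyme gene, gave 0.10 and 0.42, neither called. Each of these comparisons rests on 2 pools against 2, with the spread taken from all groups. In this fit only the P10 groups mixed the title numbers, so the spread came mostly from pools of the same number. If the number marks a litter or batch, which is not known, these p-values lack most of the spread between such units. The count of 187 fell to 79 without wild-type 1a, 93 without wild-type 2d, 95 without heterozygous 1d and 118 without heterozygous 2c, and 76, 86, 88 and 103 of these were among the 187. It was 317 without the 4 P18 pools, whose spread also enters the fit, and 282 with array weights. With only the 8 P15 pools in the fit it was 143, and 101 of these were among the 187.

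**Figure D3:**
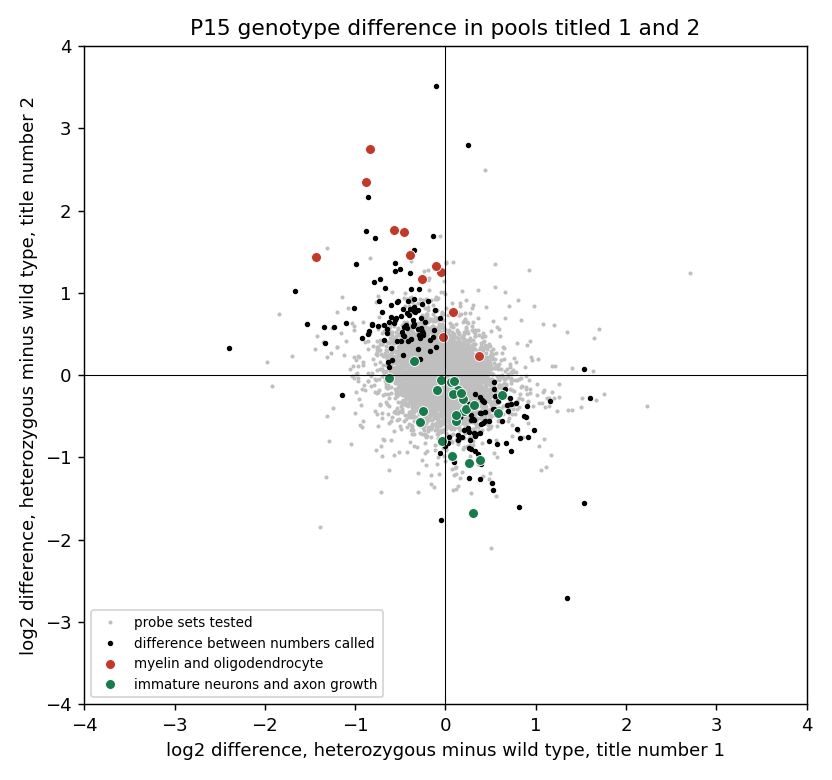
Genotype difference (log2, heterozygous minus wild type) among the P15 pools titled 1 (x axis) and titled 2 (y axis), 1 point per probe set tested; black points had a called difference between the numbers, red points are 12 myelin genes and green points 24 genes of immature neurons. Of the myelin genes, 10 lie in the upper left quadrant, and of the immature neuron genes 17 lie in the lower right.

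Myelin genes were among those with opposite differences. Of 12 tested myelin and oligodendrocyte genes, 10 were lower in heterozygotes within number 1 and higher within number 2, and the other 2 were higher in both. Over all 5694 genes the first pattern held for 27.5%. The median difference of the 12 was -0.32 within number 1 and 1.38 within number 2, against 0.00 and -0.02 over all genes tested. The test of the difference called 7 of the 12: Mal, Mobp, Apod, Gsn, Ugt8a, Cldn11 and Mbp. Among all 5694 genes it called 66 as higher within number 2. A dimmer second probe set of Mbp ran the other way, with 0.16 within number 1 and -0.11 within number 2, and was not called. Over all 8 pools the 12 genes had differences of 0.00 to 0.96 (median 0.57), none called, with 6 at an unadjusted p below 0.05. Of all 5694 genes, 136 were higher and 191 lower in heterozygotes at that level. The summed intensity of the list was 8119, 8025, 4567 and 5781 in wild-type 1a, 1b, 2c and 2d, and 6619, 7159, 11466 and 11806 in heterozygous 1c, 1d, 2c and 2d. In pooled tissue, fewer oligodendrocytes and less myelin RNA per cell cannot be told apart.

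The promoters of 3 of these myelin genes are shown with that of Fabp7, a gene that moved the other way, as examples of each direction of the difference between title numbers, chosen after their values were seen. Each line gives the 250 bases before the annotated start of transcription on the gene's own strand, from RefSeq on GRCm38.p6. The capitals mark the core recognised by SOX factors, searched as ACAAAG or ACAATG on both strands; SOX10 drives myelin genes in oligodendrocytes. Mal lies at chr2:127656696-127656945 (minus strand), Mobp at chr9:120149492-120149741 (plus), Apod at chr16:31314809-31315058 (minus) and Fabp7 at chr10:57784673-57784922 (plus).
Mal: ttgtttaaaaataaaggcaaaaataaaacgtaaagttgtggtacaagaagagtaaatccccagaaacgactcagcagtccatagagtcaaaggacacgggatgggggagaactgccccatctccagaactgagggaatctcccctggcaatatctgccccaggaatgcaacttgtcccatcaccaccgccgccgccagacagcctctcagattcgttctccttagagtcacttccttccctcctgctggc
Mobp: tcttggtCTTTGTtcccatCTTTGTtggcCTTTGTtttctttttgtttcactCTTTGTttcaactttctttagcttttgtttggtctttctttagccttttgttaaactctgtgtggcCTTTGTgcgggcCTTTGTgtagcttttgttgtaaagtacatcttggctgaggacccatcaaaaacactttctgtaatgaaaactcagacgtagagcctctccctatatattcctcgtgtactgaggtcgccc
Apod: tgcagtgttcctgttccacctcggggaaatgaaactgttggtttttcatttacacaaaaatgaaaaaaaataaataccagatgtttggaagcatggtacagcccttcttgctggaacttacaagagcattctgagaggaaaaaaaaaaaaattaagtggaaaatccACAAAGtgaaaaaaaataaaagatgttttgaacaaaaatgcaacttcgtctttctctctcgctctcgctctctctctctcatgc
Fabp7: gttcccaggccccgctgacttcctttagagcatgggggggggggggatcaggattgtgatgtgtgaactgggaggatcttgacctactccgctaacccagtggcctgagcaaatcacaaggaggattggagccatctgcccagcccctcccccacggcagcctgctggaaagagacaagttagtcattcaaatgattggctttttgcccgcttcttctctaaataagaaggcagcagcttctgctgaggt
The window of Mobp held 6 matches and that of Apod 1, whereas those of Mal and Fabp7 held 0. Of all 32851 promoter windows of this length, 25.2% held at least 1 match, so a match alone is common and describes the letters only.

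Mal, a proteolipid of compact myelin, had intensities of 339.9, 388, 113 and 129.98 in wild-type pools. It had 214, 193, 751 and 883 in heterozygous pools. The heterozygous pools titled 2 were highest, the wild-type pools titled 2 lowest, and both sets titled 1 lay between. The genotype difference was -0.84 (SE 0.31) within number 1 and 2.75 (SE 0.31) within number 2, and the difference between them was 3.59 (SE 0.44, limma adjusted p 5.49e-05). Over the 8 pools the Mal difference was 0.96 (95% confidence interval 0.08 to 1.83, limma adjusted p 0.8).

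Mobp, a myelin-associated basic protein, was measured at 1394, 1313, 355 and 415 in wild-type pools. Its heterozygous values were 719, 756, 2173 and 1765. The 4 pairs did not overlap each other and stood in the same order as for Mal, with -0.88 within number 1 and 2.35 within number 2 (difference 3.23, SE 0.40, limma adjusted p 7.28e-05). Its 3 other probe sets gave 2.64, 1.92 and 3.02 for the same difference.

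Apod, a lipid carrier of oligodendrocytes, stood at 426, 309, 141 and 159 in wild-type pools. It stood at 123, 146, 443 and 371 in heterozygous pools. The wild-type pools titled 1 thus lay with the heterozygous pools titled 2, and the pooled difference was 0.00 (SE 0.34). Within number 1 it was -1.43 (limma adjusted p 0.0111) and within number 2 it was 1.44 (limma adjusted p 0.00148).

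Gsn, the actin-severing protein gelsolin, and Septin4, a filament protein, had differences between numbers of 2.33 (SE 0.28) and 1.82 (SE 0.22). Cldn11, the tight junction protein of myelin, stood at 362 to 502 in all wild-type pools and in heterozygous 1c and 1d at 501 and 452, but at 954 and 1001 in heterozygous 2c and 2d. Ugt8a, which makes the myelin lipid galactocerebroside, ran from 60.7 in wild-type 2c to 212 in heterozygous 2d. Mog, a protein of the outer myelin surface, had values of 99.9 to 258 in wild-type and 175 to 381 in heterozygous pools, and its difference between numbers was not called (limma adjusted p 0.102). Sox10, the lineage regulator, had 0.37 within number 1 and 0.23 within number 2. Erbb3, a neuregulin receptor, followed the myelin genes with -0.78 and 1.67.

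Evi2a lies wholly within the Nf1 gene (chromosome 11, 79526560 to 79530609) and was read by 2 probe sets. The brighter had 91.7, 96.6, 58.1 and 59.2 in wild-type pools and 80.3, 67.6, 159 and 179.5 in heterozygous pools. Its difference was -0.35 within number 1 and 1.52 within number 2 (difference 1.88, SE 0.31, limma adjusted p 0.0019). The dimmer probe set was at 48.5 to 61.2 in 6 pools and at 96.9 and 119 in heterozygous 2c and 2d (difference 1.02, limma adjusted p 0.154). In wild type both probe sets rose from P10 to P28 and P32. The rise was 2.38 for the brighter and 2.90 for the dimmer (limma adjusted p 3.44e-07 and 8.02e-09). The part of the position within Nf1 was not tested.

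**Figure D4:**
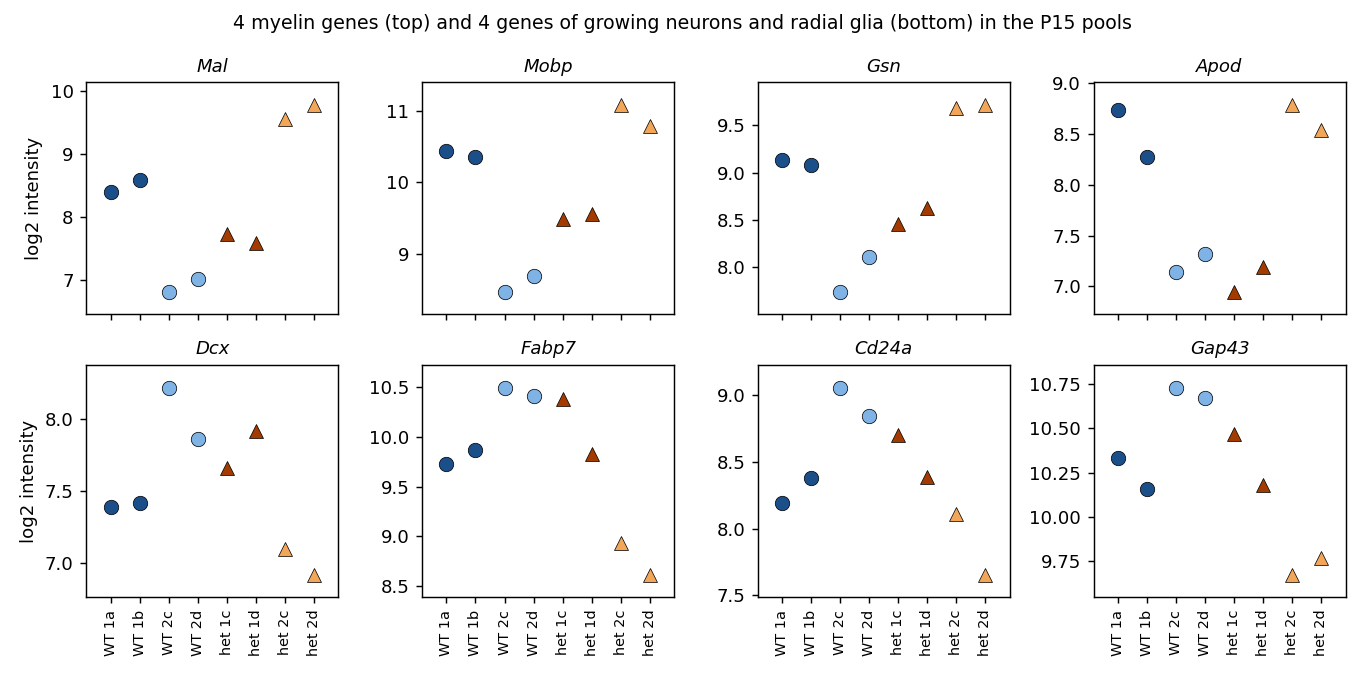
Log2 intensity (y axes) in each P15 pool (x axis) of 4 myelin genes, Mal, Mobp, Gsn and Apod, in the top row and of Dcx, Fabp7, Cd24a and Gap43 in the bottom row; circles are wild-type, triangles heterozygous pools, and each panel has its own scale. In the top row the 2 heterozygous pools titled 2 stand above those titled 1 and the 2 wild-type pools titled 2 below those titled 1; in the bottom row both orders are turned round.

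Genes of immature neurons and axon growth ran the other way. Of 24 tested, 17 were higher in heterozygotes within number 1 and lower within number 2, 1 had the reverse pattern, and 6 were lower in both; over all 5694 genes these shares were 30.6% and 27.5%. The median difference was 0.12 within number 1 and -0.39 within number 2. The difference was called for 7, all lower within number 2: Dcx, Cd24a, Gap43, Ncam1, Tubb5, Stmn2 and Fabp7, a radial glia gene on this list. Among all 5694 genes it was called as lower within number 2 for 72. A second probe set of Stmn2 was also called (-0.67). Second probe sets of Ncam1 (-0.13 within number 1 and -0.09 within number 2) and Tubb5 (-0.15 and -0.39) were not. Over all 8 pools 21 of the 24 were lower in heterozygotes (median -0.11), 5 of them at an unadjusted p below 0.05 and none called. Of all 5694 genes, 191 were lower at that level.

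Fabp7, a fatty acid binding protein of radial glia, had 846, 932, 1441 and 1359.7 in wild-type pools. It had 1333, 907, 488 and 393 in heterozygous pools. The heterozygous pools titled 2 stood far below the other 6. The difference was 0.31 within number 1 and -1.68 within number 2 (difference -1.99, SE 0.32, limma adjusted p 0.00162).

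Dcx, a microtubule protein of migrating neurons, had 168, 170.4, 297 and 232 in wild-type pools and 202, 241, 137 and 121 in heterozygous pools. The heterozygous pools titled 2 were lowest, and the highest heterozygous pool titled 1, at 241, overlapped the lower wild-type pool titled 2, at 232. The difference between numbers was -1.41 (SE 0.24, limma adjusted p 0.0019). Cd24a, a surface protein of young neurons, had -1.33 (SE 0.26), and Gap43, a growth cone protein, -1.06 (SE 0.24). Evl, an actin regulator at growth cones, was higher in heterozygotes within number 1 (0.69, limma adjusted p 0.0177) and had -0.44 within number 2, but a second probe set gave -0.19 and -0.53.

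Some matrix and glial genes joined on either side. Over all 5694 genes, 30.6% were higher within number 1 and lower within number 2, and 27.5% had the reverse pattern. Among these 5694 genes the difference between numbers was called as higher within number 2 for 66 and as lower for 72. Of 7 genes of the perineuronal matrix, 6 were higher within number 1 and lower within number 2, and the difference was called for Agrn (-0.99) and Ncan (-0.89), 2 proteoglycans. Of 18 astrocyte genes, 9 ran with the myelin genes, 2 had the reverse pattern, 2 were higher in both numbers and 5 lower in both. The difference was called for Mt1 (1.10), a metal-binding protein, Clu (0.96), a secreted chaperone, and Gjb6 (0.93), a gap junction protein. Nkx2-2, a transcription factor of oligodendrocyte precursors, ran against the myelin genes at 0.89 within number 1 and -0.51 within number 2. Its intensities were 77.7, 57.8, 163 and 176 in wild-type and 127, 122, 116 and 122 in heterozygous pools, so the spread lay in the wild-type pools.

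Receptor and signalling genes were also among those called. Gria1, an AMPA receptor subunit, stood at 1442, 1384, 661 and 550.2 in wild-type and 746, 483, 1150.1 and 714 in heterozygous pools. Its difference was -1.24 within number 1 and 0.59 within number 2 (difference 1.82, SE 0.30, limma adjusted p 0.0019), whereas a second probe set gave 0.17 and 0.26. Gria3 had a difference between numbers of 1.93 and the potassium channel gene Kcna1 one of 1.74. Of the Ras pathway, the exchange factor gene Rasgrf1 (1.18, limma adjusted p 0.0274), the kinase gene Map2k1, which encodes MEK1 (0.82), the tyrosine phosphatase gene Ptpn5 (-1.25) and the kinase gene Mapk7 (-3.09) were called. Mapk7 was dim, at 13.6 to 71.7. Of the immediate early genes, Fos (1.45) and Nr4a2 (1.92) were called. Of 19 tested, 11 were lower within number 1 and higher within number 2, against 27.5% of all 5694 genes.

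Some genes of neighbouring brain regions were highest in the 2 wild-type pools titled 2. Penk, an opioid peptide gene of the striatum, stood at 809 and 1391 in wild-type 2c and 2d and at 249.995 to 323 in the other 6 pools. A dimmer second probe set of Penk had genotype differences of 0.33 within number 1 and -0.57 within number 2. Their difference of -0.90 was not called (limma adjusted p 0.724). Zic1, a transcription factor of septum and thalamus, stood at 685 and 639.8 in wild-type 2c and 2d and at 138 to 345 elsewhere. The interneuron and striatal genes Tac1, Dlx5 and Dlx2 were likewise highest in these 2 pools. The interneuron gene Pvalb was lowest there, at 494 and 485 against 578 to 815 elsewhere. All 17 tested interneuron genes summed to 9503 and 9918 in these 2 pools and to 9862 to 10634 in the others. The 11 tested markers of cortex, thalamus and striatum summed to 3069 to 4574 in wild-type and 2956 to 3442 in heterozygous pools, and 4054 and 4574 were those of wild-type 2c and 2d. Without Penk and Zic1 the other 9 markers summed to 2744, 2651, 2559 and 2543 in the wild-type pools, lowest in 2d and 2c, and to 2535 to 2844 in the heterozygous pools. Tbr1, a transcription factor of cortical glutamatergic neurons, went the other way, at 463 and 384 in these 2 pools and 495 to 834 elsewhere. Over all 8 pools 5 of the 11 markers were higher and 6 lower in heterozygotes (median -0.01), and none was at 0. Their part in the differences of the other genes was not tested.

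Markers of other cell types were summed in the same way. The summed intensity of 11 endothelial genes was 1410 to 1539 in wild-type and 1291 to 1473 in heterozygous pools, and 1 of them, the VEGF receptor gene Flt1, was called between title numbers (2.34). The Flt1 call was lost in 8 of 17 alternatives, and a second probe set gave -0.08 within number 1 and 0.14 within number 2. For microglia the sum of 11 genes was 2485 to 2888 and 2600 to 2945. The 4 blood genes summed to 2498 to 2859 and 1875 to 2845. The 6 genes of choroid plexus and ependyma summed to 2765 to 3702 and 2733 to 4842, and the highest pool, heterozygous 2c, had the choroid plexus gene Ttr at 2697 against 918 to 1481 elsewhere. Of 14 genes of mural cells and fibroblasts, 12 were higher within number 1 and lower within number 2, against 30.6% of all 5694 genes. None of the 14 was called, and their median differences were 0.13 and -0.39. Their sum was 4295, 4025, 4641 and 5315 in the wild-type pools and 4690.2, 4349, 4527 and 3592 in the heterozygous pools, highest in wild-type 2d and lowest in heterozygous 2d.

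The probe sets that separated the title numbers overlapped those that change with age in wild type. Between P10 and P28 to P32, 2845 of the 7453 probe sets (38.2%) were called in wild-type pools, none of them from P15. Of the 187 probe sets called between title numbers, 114 were among them, and for 104 of the 114 the difference had the sign of the change with age. The share of equal signs over all probe sets was not computed, so the 104 have no background beside them. Between the wild-type pools alone, number 2 differed from number 1 at 121 probe sets (1.62%), 49 higher and 72 lower. Between the heterozygous pools 27 were called (0.362%), 16 higher and 11 lower. For Mal, number 2 minus number 1 was -1.58 in wild type (limma adjusted p 0.00731) and 2.005 in heterozygotes (limma adjusted p 0.00388).

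A maturation score placed each pool on the wild-type time course, with 0 at P10 and 1 at P28 to P32, from these 2845 probe sets. Wild-type 1a, 1b, 2c and 2d scored 0.412, 0.412, 0.333 and 0.287. Heterozygous 1c, 1d, 2c and 2d scored 0.401, 0.311, 0.536 and 0.552. The heterozygous pools titled 2 were the highest of the 8, and wild-type 2d, heterozygous 1d and wild-type 2c were the 3 lowest. The means were 0.361 ± 0.0618 (SD, n = 4) in wild type and 0.450 ± 0.115 (SD, n = 4) in heterozygotes, a difference of 0.0890 with a two-sided exact permutation p of 0.257. Without the myelin list the difference was 0.0832 (exact permutation p 0.2). At P18 and P20 wild-type pools scored 0.455 to 0.571, so that the 2 highest P15 pools lay within that range; heterozygous 1b at P18 stood apart from the other P18 pools at 1.003.

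**Figure D5:**
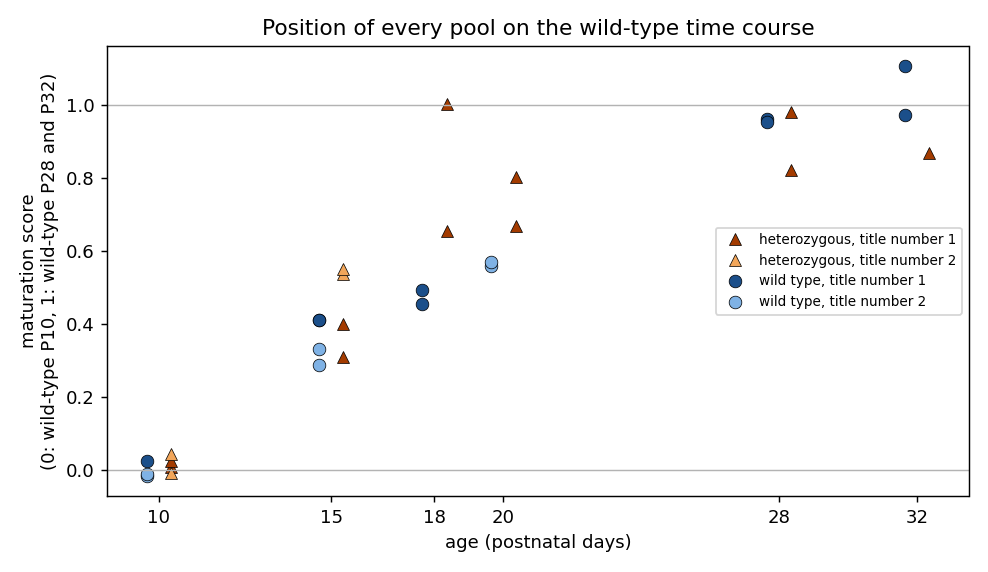
Maturation score (y axis, no unit; 0 is the wild-type P10 mean and 1 the wild-type P28 and P32 mean) of all 30 pools by age in days (x axis); circles are wild type, triangles heterozygous, dark for title number 1 and light for number 2, with genotypes set slightly apart. At P15 the scores run from 0.287 to 0.552, and the 2 heterozygous pools titled 2 stand at the top.

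The P15 differences were set beside those of P10. The genotype effects at P10, from 4 heterozygous and 3 wild-type pools that share none with P15, correlated with those at P15 at -0.09 across the 7453 probe sets, which are not independent, and 48.5% had the same sign. The difference between the P15 and the P10 effect was called for 0 probe sets (0%) by limma, with a smallest adjusted p of 0.124 and 505 at an unadjusted p below 0.05. At P10 itself 3 probe sets were called (0.0403%). These were Degs2, a lipid desaturase gene, Adar, an RNA editing enzyme gene, and Zic2, with P10 differences of 1.97, 1.58 and -1.23. Their P15 differences were 0.05, 0.25 and -0.17, and Degs2 stood at 41.4 to 86.4 in wild-type and 54.5 to 75.2 in heterozygous pools.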

How the data were processed

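RNA of 30 pools was read on MG-U74Av2 arrays, a mouse oligonucleotide array. The authors deposited 1 intensity per probe set and array. The 2% trimmed means of the 8 P15 arrays lie between 150.085 and 150.089, so the values had been scaled to a common level; the sources used here name neither software nor scaling. Of 12422 probe sets that are not controls, 10833 carried 1 gene symbol in the platform annotation, 10817 of them matched to RefSeq (GRCm38.p6).

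Intensities below 1 were set to 1 and log2 values taken with no further normalisation. The lowest 40% by mean log2 over all 30 arrays (intensity under 30.9) were left out, leaving 7453 probe sets, of which 6762 had 1 symbol, for 5694 genes. Group means were fitted to all 30 arrays in limma 3.58.1 (R 4.3.3) with lmFit and a trended eBayes, and the spread was thus shared among all groups; for the title numbers, each P15 genotype was split by number. P-values were adjusted by Benjamini and Hochberg, with a threshold of 0.05. Single values were compared with exact permutation tests. The fit was tested on simulated data. In lists, each gene was read from its brightest probe set.

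Named were Nf1, the 20 genes with the smallest p, up to 2 genes a list by size of difference, the 3 with the smallest p between title numbers, the genes called at P10, and second probe sets. List members called between title numbers, Usp2 and further examples from the lists (such as Calb1, Sos1, Dusp6 and Tbr1) were named after their values were seen, and Evi2a by position. The gene lists and comparisons were chosen with earlier results of these data known. Alternatives covered blocks on title number and code, normalisation, filter, floor, pseudocount, array weights, a Gapdh covariate, other sample sets and leaving out each pool. The titles were not taken to pair same-coded pools. Deviations of such pools from their genotype means correlated at P15 at -0.18 and -0.11. These deviations hold the shift between title numbers, which ran in opposite directions in the 2 genotypes (correlation -0.21 for number 2). The check therefore could not decide whether the codes pair pools.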

Additional observations from a re-analysis of the deposited data

Results flagged for a closer look

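Gaps were tested in 250 groups of 4 pools, from the named genes, Nf1 and the maturation score. In 8 groups, all of named genes, 1 pool lay apart from the other 3 by a gap above Dixon's 95% critical value. The gap is given as a share of the whole range. Chance alone gives about 1 in 20 groups, a larger share than 8 of 250. Among heterozygous pools these were Npy in 1d (809 against 768 to 773, gap 0.872), Rps19 in 2d (380.1 against 564 to 593, gap 0.889), Adcy8 in 1c (104 against 64.7 to 69.5, gap 0.848) and Nr4a2 in 1d (104 against 139.8 to 148, gap 0.847). Among wild-type pools they were Kcnab1 in 1b (132 against 170.4 to 178, gap 0.857), Laptm5 in 1b (162 against 215 to 223, gap 0.879), Homer1 in 2d (8.15 against 44.4 to 56.5, gap 0.876) and Ywhae in 2d (282 against 213 to 223, gap 0.847).

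The genotype difference within title number 2 differed from that within number 1 for 187 probe sets by limma, and the genes named in the text among them are given here with the log2 difference of the 2 effects. Of the myelin genes, Mal had 3.59, Mobp 3.23, Apod 2.87, Gsn 2.33, Ugt8a 1.85, Cldn11 1.30 and Mbp 0.68. Septin4 had 1.82, Erbb3 2.45, Evi2a 1.88, Usp2 1.15 and 6330403K07Rik 0.90. A brighter second probe set of 6330403K07Rik gave -0.27 (limma adjusted p 0.628). Of receptors, channels and synaptic genes, Gria1 had 1.82, Gria3 1.93, Kcna1 1.74, Scn8a 1.32, Snap25 0.75 and Pvalb 0.76. Of signalling and early response genes, Rasgrf1 had 1.18, Map2k1 0.82, Fos 1.45, Nr4a2 1.92 and the vessel receptor gene Flt1 2.34. Of astrocyte genes, Mt1 had 1.10, Clu 0.96 and Gjb6 0.93. Lower within number 2 were the radial glia gene Fabp7 (-1.99) and the growth genes Dcx (-1.41), Cd24a (-1.33), Gap43 (-1.06), Ncam1 (-0.65), Tubb5 (-0.64) and Stmn2 (-0.61). So were the actin regulator genes Evl (-1.13) and Vasp (-1.18), the matrix genes Agrn (-0.99) and Ncan (-0.89), and the peptide genes Penk (-1.71) and Tac1 (-1.51). The others were Hmgb3 (-0.88), Ptpn5 (-1.25), Mapk7 (-3.09), Nkx2-2 (-1.40), Srsf6 (-1.64), Ndn (-0.77), Cdk4 (-0.73) and Pgk1 (-0.67). These named genes had 21 second probe sets, of which 18 had the same sign and only 8 were called. The sign was opposite for those of Mbp, Ncam1 and 6330403K07Rik.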

How the results depend on the processing

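The count of 0 probe sets called for genotype at P15 was also given by the title number as a replicate block and without any 1 of the 8 pools. It became 81 with the title code as a replicate block, 1 with the Gapdh ratio as a covariate (Cdh4) and 1 with crossed title numbers as a replicate block (Mal), an alternative added after seeing the data. The count of 0 for the difference between P15 and P10 became 47 with the title code block and 1 with the title number block, without a filter, and with the Gapdh covariate. The count of 187 between title numbers became 282 with array weights, 317 without the 4 P18 samples (all 187 shared), and 79 to 173 when 1 pool was left out. It became 143 with only the 8 P15 samples (101 shared). With the title code block, by construction the difference among codes 2c and 2d, Nf1 reversed to -0.20, and so did Laptm5 (-0.043), Tsc1 (0.0065), Cacna2d1 (0.22), Hnrnpl (-0.34), Usp2 (0.51), Ywhaz (-0.053) and Anpep (-0.38). Degs2 reversed to -0.017 with array weights. Without 1 pool Prox1 ranged from -0.049 to 0.52, Alas2 from -0.27 to 0.052, Usp2 from -0.24 to 0.12 and Degs2 from -0.14 to 0.22. Of the 47 named genes called between title numbers, 22 kept the call in every alternative, among them Mal, Mobp, Apod, Gsn, Septin4, Fabp7 and Dcx, and 25 lost it in at least 1, among them Mbp, Gap43, Fos, Penk, Rasgrf1 and Map2k1. The causes were not tested. Levels near the filter, as for Cdh4, Gabra2 and Mapk7, limit the precision.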
